A study of Mus musculus with 10 samples.

Results

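The cytosolic ribosomal protein genes are described here in the hippocampus of mice whose meningeal lymphatic vessels were targeted by light-activated Visudyne. Members were the protein-coding genes whose symbols carry Rpl or Rps and a number, or Rplp0 to Rplp2, without processed-pseudogene symbols and without the Rps6 kinase family. This rule took 84 of the 28871 genes in the count table: 51 with large subunit symbols, 32 with small subunit symbols, and Rps19bp1. Rps19bp1 is a regulator of the deacetylase SIRT1 that shares the name but is no ribosomal protein. Subunits were assigned by symbol alone. The rule used no measured value. The Visudyne group (samples 3, 6, 9, 12 and 15) and the vehicle group (samples 1, 4, 7, 10 and 13) each had 5 samples from wild-type C57BL/6J males aged 2 months. Visudyne, a liposomal preparation of the photosensitizer verteporfin, was injected into the cisterna magna and activated with 689 nm light through the intact skull. The vehicle group received its injection and the light in the same way. All animals had this procedure again after 2 weeks, and whole hippocampus was taken 2 weeks after the last one. The labels do not state that each sample was a single animal, so p-values measure the spread between these samples.

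Ribosomes are built from rRNA and these proteins in fixed proportion, and cells make the proteins in matched amounts. Their mRNAs are short and abundant and begin with a run of pyrimidines, the terminal oligopyrimidine (TOP) tract, through which the kinase complex mTORC1 and the RNA-binding protein LARP1 control their translation and stability. Ribosomal protein genes also left many processed copies in mammalian genomes, and introns of several of them hold small nucleolar RNAs (snoRNAs), which guide the modification of rRNA. In neurons, ribosomal protein mRNAs are present in dendrites and axons as well as in the cell body.

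The start regions are shown first because the TOP tract is the sequence feature these transcripts are known for. The 7 shown were picked from the 14 members whose annotated start has a C followed by 4 pyrimidines, and most annotated starts lack that pattern. Each line gives 25 bases before and 20 bases from the RefSeq transcription start on GRCm38.p6, on the gene's strand, with capitals for the pyrimidine run that begins at the start base. Rps27 and Rps27rt, which has a single annotated exon and is named as a retrogene of Rps27, are shown because their counts could not be separated well. Rps6 encodes the classical substrate of the S6 kinases, Rplp2 a stalk protein, Rpl15 and Rpl28 large subunit proteins, and Rps10 a small subunit protein.
Rps27: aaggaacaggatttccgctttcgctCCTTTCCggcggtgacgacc
Rps27rt: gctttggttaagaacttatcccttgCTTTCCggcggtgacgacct
Rps6: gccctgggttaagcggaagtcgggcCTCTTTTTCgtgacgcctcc
Rplp2: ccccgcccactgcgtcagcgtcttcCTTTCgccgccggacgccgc
Rpl15: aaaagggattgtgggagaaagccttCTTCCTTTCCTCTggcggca
Rpl28: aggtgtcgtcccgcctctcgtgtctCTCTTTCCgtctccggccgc
Rps10: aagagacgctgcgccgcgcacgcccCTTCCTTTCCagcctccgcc
The Rps27 stretch lies at chr3:90213629-90213673 and the Rps27rt stretch at chr9:114982720-114982764, both on the minus strand. From base 2 of Rps27 and base 1 of Rps27rt the transcripts are identical for 38 bases, while before the start only 5 of 25 bases are the same. Rps6 is on the minus strand at chr4:86857348-86857392, Rplp2 on the plus strand at chr7:141447626-141447670, Rpl15 on the minus strand at chr14:18270967-18271011, Rpl28 on the plus strand at chr7:4792940-4792984 and Rps10 on the minus strand at chr17:27635225-27635269.

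RefSeq promoter entries matched 64 of the 84 members. A C at the start base followed by 4 pyrimidines was present in 14 of the 64 (21.9%), against 813 of all 27025 genes with a promoter entry (3.01%). A gene was counted if any of its entries matched. Within 50 bases on either side of the start, CTTTCC on the gene's strand occurred in 32.8% of members, against 5.43% of all these genes. CTCTTTC, which can lie beside or overlap a CTTTCC, occurred in 18.8% of members, against 1.62% of all these genes. CCGGAAG, the core bound by ETS-family factors, was found on either strand in 21.9% of members, against 5.98% of all these genes. TATAAA occurred in 7.81% of members, against 4.05% of all these genes. These are matches of letters, and annotated starts can be off by some bases.

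In gene structure the members were compact. Their longest annotated transcripts had a median of 1076.5 nucleotides, against 3092 for the 18404 nuclear protein-coding genes in the table. A snoRNA gene lay inside 29 of the 84 members (34.5%), against 239 of the 18404 genes (1.30%). Rpl4 held 5 of them and Rpl13a held 4. Members were spread over 19 chromosomes, with 14 on chromosome 7, and Rpl10, Rpl36a, Rpl39 and Rps4x on the X chromosome.

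Libraries held 51165271 to 68895223 estimated counts. Mitochondrial rRNA took 17.8% to 19.97% of the counts in Visudyne samples and 18.7% to 21.5% in vehicle samples. Hippocampal markers were present in both groups: Prox1, of dentate granule neurons, averaged 101 CPM in Visudyne samples and 108 CPM in vehicle samples, and Neurod6, of pyramidal neurons, 132 CPM in Visudyne samples and 146 CPM in vehicle samples. CPM are counts scaled to a common library total. Of the 4 choroid plexus markers, all were detected, and their summed level was 24.9 to 49.996 CPM in Visudyne samples, against 211 CPM in Vehicle 7 and 26.9 to 41.6 CPM in the other vehicle samples. All 4 fibroblast markers were detected as well, with sums of 89.3 to 118 CPM in Visudyne samples and 36.4 to 89.5 CPM in vehicle samples.

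Members took 0.782%, 0.775%, 0.758%, 0.835% and 0.707% of all counts in Visudyne samples 3, 6, 9, 12 and 15, against 0.844%, 0.718%, 0.725%, 0.771% and 0.751% in vehicle samples 1, 4, 7, 10 and 13. The lowest share was that of Visudyne 15 and the highest that of Vehicle 1, and the groups overlapped over most of their range. The means were 0.771% ± 0.0461 with Visudyne and 0.762% ± 0.0506 with vehicle (SD, n = 5 each). Summed large subunit counts were 1.65 to 1.68 times the summed small subunit counts in Visudyne samples and 1.66 to 1.68 times in vehicle samples. The ratio between the subunits thus lay in a narrow range, while the share of counts ran from 0.707% to 0.844%. In bulk tissue, fewer cells of a type and less RNA per cell cannot be told apart.

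Levels between members were compared as CPM per kilobase of exon, with all annotated exons of a gene counted in its length. The order thus depends on annotated length as well as on counts. Rps15 and Rps15a had 136 and 99.0 CPM over all samples. With annotated lengths of 630 and 6270 bases, they stood at 215 and 15.8 CPM per kilobase. Rplp1, the acidic stalk protein that helps recruit elongation factors, stood highest at 411 CPM per kilobase over all samples. Below it came Rps15 at 215, Rps3a1 at 209, Rps27rt at 206, Rpl19 at 181 and Rps29 at 169 CPM per kilobase. Among the lowest tested members were Rps25 at 1.37, Rpl12 at 1.92, Rpl27 at 4.197, Rpl22l1 at 4.91 and Rps27 at 6.499 CPM per kilobase. With the longest transcript as the length, 4 of the 6 highest and 5 of the 6 lowest were the same genes. Neighbours in this order, such as Rps15, Rps3a1 and Rps27rt, differed by less than their SD between samples. The order is one of table entries: as shown further on, several of the low entries share their sequence with another entry that holds most of the counts. This does not hold for Rps25 and Rpl22l1, whose own entries held 98.98% and 97.9% of the counts of their groups. Why they stand low was not tested. Of the high entries, Rps27rt shares its coding sequence with Rps27 and was given 91.5% of the counts of their group, so its place is uncertain too.

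**Figure D1:**
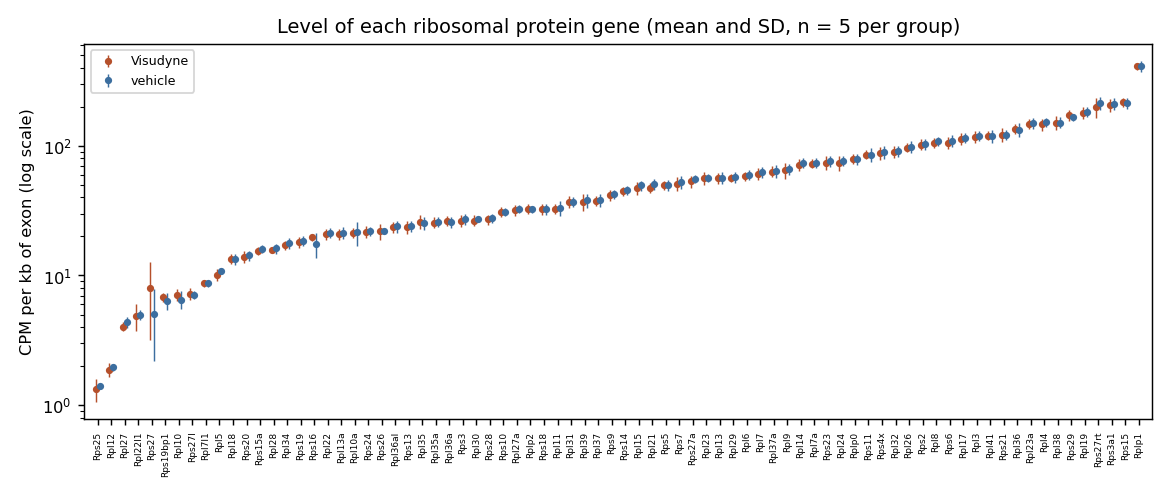
Mean level in CPM per kilobase of exon (log scale) of 78 of the 81 tested members in Visudyne samples (orange) and vehicle samples (blue), with SD as bars (n = 5 per group), ordered by level. Levels ran from 1.37 for Rps25 to 411 for Rplp1, and the means of the groups lay within a bar of each other for most genes, with the widest bars for Rps27. The order also depends on the annotated exon length of each gene.

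No ribosomal protein gene passed the test between Visudyne and vehicle. Of the 84 members, 81 had enough counts for edgeR's quasi-likelihood test over 19093 genes. With a Benjamini-Hochberg threshold of 0.05, 0 of the 81 were called higher, where 0.0210% of all genes were, and 0 were called lower, where 0% of all genes were. Before adjustment, 0 members had a p below 0.05 in edgeR's test, where 1.70% of all genes did. DESeq2 and limma voom also called none. The groups overlapped for each of the 81 members. Over all genes they were fully separated with Visudyne on top for 0.319% and with Visudyne below for 0.115%. With shares this small, the lack of separated genes among 81 is not a trait of the members.

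The log2 fold changes, Visudyne over vehicle, were small: 76 of the 81 lay within 0.1 of 0, and for 80 of 81 the whole 95% interval lay within 0.5 of 0. Their median was -0.03, against 0.0022 for all genes. The sign was negative for 63 of 81 members, where 48.9% of all genes were negative. That majority depended on single libraries in both directions. Without Visudyne 15, 18 of 81 were negative and the median was 0.02, and without Vehicle 1, 12 of 81 were negative and the median was 0.03. Without Visudyne 12, 74 of 81 were negative, the median was -0.07, and 2 members had an unadjusted p under 0.05 in edgeR's test. Without Vehicle 4, 74 of 81 were negative and the median was -0.04. Without both Visudyne 15 and Vehicle 1, 5 of 81 were negative, the median was 0.08, and 7 members had an unadjusted p under 0.05 with none past adjustment. Leaving out the lowest Visudyne and the highest vehicle library moves fold changes up by construction. The large subunit's median was -0.03 over 49 genes and the small subunit's was -0.03 over 31 genes.

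**Figure D2:**
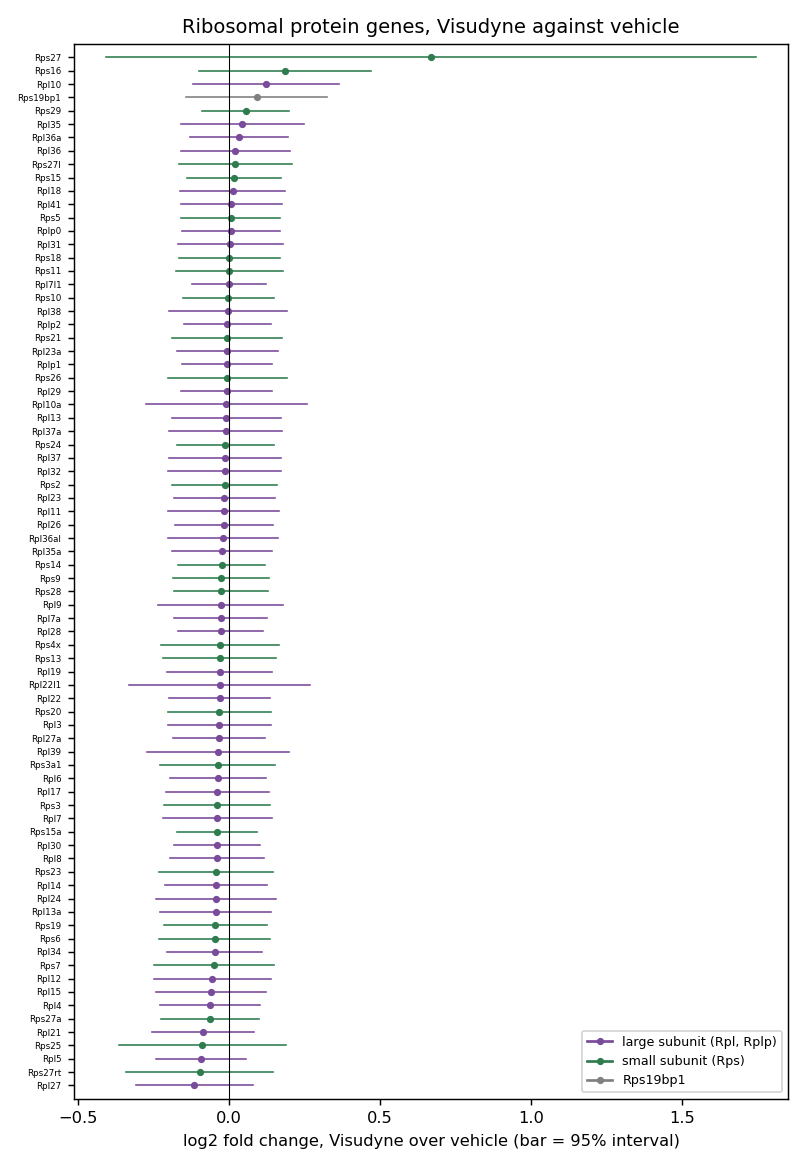
Log2 fold change of 78 of the 81 tested members, Visudyne over vehicle, with 95% intervals from edgeR's quasi-likelihood fit, for large subunit genes (purple), small subunit genes (green) and Rps19bp1 (grey). All intervals include 0. Points run from -0.11 for Rpl27 to 0.67 for Rps27, whose interval is by far the widest.

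Among members with higher means after Visudyne, the smallest p belonged to Rps16, a small subunit protein that reaches the decoding region. It had 25.8, 24.98, 24.5, 26.8 and 22.7 CPM in Visudyne samples, against 14.8, 19.4, 25.7, 26.3 and 23.5 CPM in vehicle samples. Vehicle 1 and Vehicle 4 were low, and the other vehicle samples lay within the Visudyne range. Its log2 fold change was 0.19 ± 0.13 (SE), with an adjusted p of 0.9999 by edgeR's quasi-likelihood test. Rps27, a zinc-binding protein of the small subunit, had 6.41, 15.02, 7.36, 1.75 and 11.05 CPM with Visudyne, against 4.44, 1.72, 9.20, 3.64 and 7.21 CPM with vehicle. Both groups held a sample below 2 CPM, and the log2 fold change was 0.67 ± 0.49 (SE), the largest of any member. Rpl10, which joins the large subunit late in its assembly, had 12.7 to 16.6 CPM with Visudyne and 10.2 to 15.5 CPM with vehicle (log2 fold change 0.12). Rps19bp1 (0.09), Rps29 (0.06) and Rpl35 (0.04) completed the 6 of smallest p in this direction.

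In the other direction the smallest p belonged to Rpl5, which carries 5S rRNA into the large subunit together with Rpl11. It had 41.3, 36.4, 38.8, 45.8 and 36.4 CPM with Visudyne, against 45.2, 40.5, 42.9, 44.1 and 39.3 CPM with vehicle. Visudyne 3 lay within and Visudyne 12 above the vehicle range, and the log2 fold change was -0.09 ± 0.07 (SE). The Rpl5 entry held 21.2% of the counts of its sequence group. Summed with near-identical entries, as described further on, its log2 fold change was -0.04. Rpl27 (-0.11), Rpl21 (-0.09), Rps27rt (-0.10) and Rps27a (-0.06), which encodes ubiquitin fused to a small subunit protein, were also among the 6 of smallest p in this direction. None of them came near the threshold.

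The stalk is the part of the large subunit that binds translation factors. Its base protein Rplp0 had 141, 126, 130, 145 and 116 CPM in Visudyne samples, against 153, 126, 123, 129 and 125 CPM in vehicle samples. Rplp1 averaged 205 ± 13.5 CPM with Visudyne and 205 ± 19.8 CPM with vehicle, and Rplp2 ranged from 57.9 to 72.9 CPM with Visudyne and from 65.1 to 74.9 CPM with vehicle. All stalk genes were lowest in Visudyne 15 and highest in Vehicle 1. Rpl3, at the catalytic centre, ranged from 321 to 427 CPM with Visudyne and from 350 to 432 CPM with vehicle. Rpl39, which lines the exit tunnel, ranged from 42.8 to 64.4 CPM with Visudyne and from 45.4 to 63.5 CPM with vehicle.

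Rpl5, Rpl11, Rpl23 and Rpl26 are known to act on the p53 pathway when ribosome assembly is disturbed, Rpl5, Rpl11 and Rpl23 by binding Mdm2 and Rpl26, in human cells, at the p53 mRNA. Rpl11 had 76.7 to 97.7 CPM with Visudyne and 80.6 to 109 CPM with vehicle. Rpl23 had 84.2 to 114 CPM with Visudyne and 94.3 to 112 CPM with vehicle, and Rpl26 had 127 to 158 CPM with Visudyne and 132 to 168 CPM with vehicle. In these genes as well the groups covered nearly the same range. Of the 10 genes of a nucleolar stress and p53 list, none passed the test, and the 3 of smallest p were Cdkn1a (log2 fold change 0.22), Zmat3 (0.07) and Mdm4 (0.18).

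In the small subunit, Rps6 had 176, 161, 166, 194 and 144 CPM with Visudyne, against 202, 160, 167, 180 and 160 CPM with vehicle. Rps3, which lies at the mRNA entry, had 102 to 138 CPM with Visudyne and 115 to 142 CPM with vehicle. Rps14, whose loss contributes to the anaemia of a human chromosome deletion syndrome, had 96.1 to 117 CPM with Visudyne and 99.5 to 122 CPM with vehicle. Rps19, the gene most often mutated in human Diamond-Blackfan anaemia, had 74.1 to 96.2 CPM with Visudyne and 80.1 to 101 CPM with vehicle. X-linked Rps4x had 120 to 165 CPM with Visudyne and 128 to 171 CPM with vehicle. All 5 genes had their lowest value in Visudyne 15 and their highest in Vehicle 1.

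Paralogs are given by their range in each group. Rpl22 had 52.6 to 68.99 CPM with Visudyne and 56.7 to 71.3 CPM with vehicle, and its paralog Rpl22l1 had 6.85 to 12.8 CPM with Visudyne and 9.15 to 11.3 CPM with vehicle. Rpl36a had 37.7 to 47.8 CPM with Visudyne and 39.6 to 49.6 CPM with vehicle, and its retrocopy-derived paralog Rpl36al had 27.1 to 35.4 CPM with Visudyne and 28.9 to 38.0 CPM with vehicle. Rpl7 had 140 to 187 CPM with Visudyne and 153 to 194 CPM with vehicle, while Rpl7l1 had 28.6 to 33.1 CPM with Visudyne and 28.9 to 33.1 CPM with vehicle. Rps27l had 5.30 to 6.92 CPM with Visudyne and 5.39 to 6.48 CPM with vehicle. Rpl41, the smallest ribosomal protein, had 124 to 152 CPM with Visudyne and 129 to 167 CPM with vehicle. The 3 members left out of the test were Rpl3l, the paralog of striated muscle, with 4 to 14 counts per sample, Rpl39l, known from testis, with 0 to 6, and Rps12 with 0 to 7. Rps4l is of a non-coding type in the annotation and so is no member, and Rpl10l was not analysed here.

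The libraries differed from each other in a way that nearly all members shared. For each member, log2 CPM was taken relative to its own mean over the 10 samples, and the median of these deviations over the 81 members was taken per library. It was 0.05, -0.04, -0.05, 0.17 and -0.21 in Visudyne samples 3, 6, 9, 12 and 15, and 0.22, -0.06, -0.05, 0.02 and -0.06 in vehicle samples 1, 4, 7, 10 and 13. Visudyne 12 and Vehicle 1 were high and Visudyne 15 was low. The group means of these library values were -0.01 ± 0.14 with Visudyne and 0.01 ± 0.12 with vehicle (SD, n = 5 each). Visudyne 15 was the lowest sample for 71 of the 81 members, where it was lowest for 20.9% of all genes. Vehicle 1 was the highest sample for 59 members, where it was highest for 18.7% of all genes. Visudyne 12 was above the gene's own mean in 78 of 81 members and Visudyne 15 in 2 of 81.

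**Figure D3:**
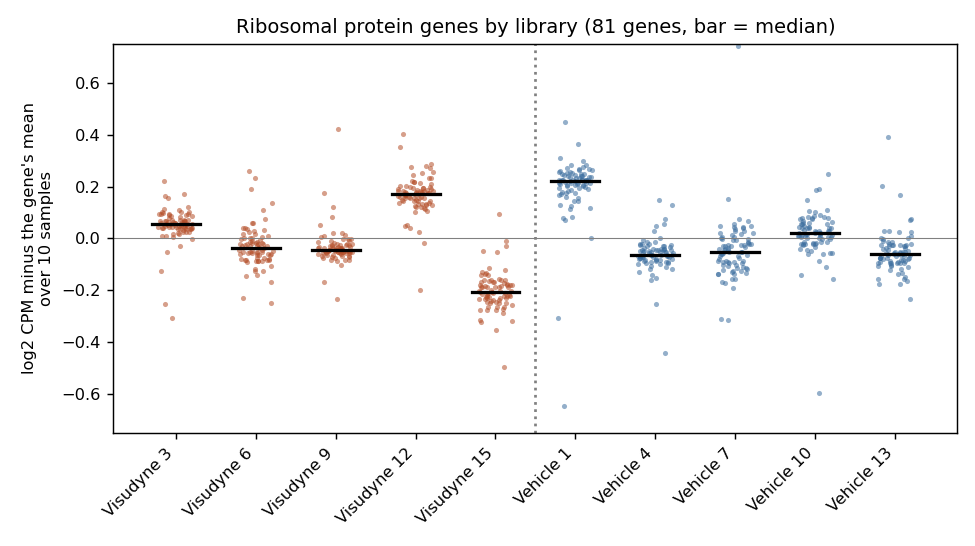
Log2 CPM of each of the 81 tested members minus its mean over the 10 samples, by library, with Visudyne samples (orange) left of vehicle samples (blue) and the median as a black bar. The genes of a library lie together, with medians from -0.21 in Visudyne 15 to 0.22 in Vehicle 1. The axis stops at 0.75 on either side, which leaves out 4 points, all of Rps27.

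The spread within groups was set beside this shared shift. The median within-group SD of log2 CPM was 0.139 for members and 0.154 for all genes. The widest were Rps27 at 1.06, Rps16 at 0.253 and Rpl22l1 at 0.253, and the narrowest Rpl7l1 at 0.0837, Rps15a at 0.0999 and Rpl28 at 0.104. After the library's median deviation was subtracted, the median SD was 0.0431 for members. That deviation was taken from these same members, so their spread falls partly by construction. The SD left was 0.013 for Rpl19 and 0.017 for Rps3, both abundant subunit proteins. The first principal component held 65.6% of the variance of members and 41.4% of that of all genes, and over all genes its ends were Visudyne 15 and Vehicle 1 too. With each gene scaled to equal variance, the shares were 81.2% for members and 41.6% for all genes. The sets differ in size, with 81 and 19093 genes. The libraries kept the extremes under other scalings: Visudyne 15 stood at -0.20 with RLE factors, -0.15 with upper-quartile factors and -0.11 with the library total alone. Vehicle 1 stood at 0.21 with RLE factors, 0.18 with upper-quartile factors and 0.14 with the library total alone. With the library total alone the margins were narrow, as Vehicle 4 stood at -0.09 and Visudyne 12 at 0.13. The size of the shift thus depended on the scaling: the TMM factor was highest in Visudyne 15 (1.07) and lowest in Vehicle 1 (0.947). Mitochondrial rRNA was 19.97% of counts in Visudyne 12, 18.0% in Visudyne 15 and 21.2% in Vehicle 1, but 21.5% in Vehicle 4, whose members stood at -0.06. Fibroblast marker sums were 104 CPM in Visudyne 12, 95.4 CPM in Visudyne 15 and 89.0 CPM in Vehicle 1. The part of these measures in the shift was not tested.

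Other genes of the translation machinery were read alongside. The 4 ribosomal proteins listed outside the naming rule, Rpsa, Fau and Rack1 among them, had a median deviation of 0.13 in Visudyne 12, -0.14 in Visudyne 15 and 0.23 in Vehicle 1. The 16 translation factors with TOP mRNAs stood at 0.13, -0.20 and 0.15 in these libraries, in the same order. The 6 noncoding TOP hosts of snoRNAs did not share this pattern, with -0.02, -0.0068 and -0.04. Nuclear genes of oxidative phosphorylation (77 tested) had 0.13, -0.18 and 0.20, and mitochondrial ribosomal proteins (77 tested) 0.09, -0.14 and 0.14. In contrast, the 30 genes of snoRNA-protein complexes and rRNA processing had 0.03, -0.06 and 0.02, and the 17 genes of mTORC1 and LARP1 control had -0.01, -0.02 and -0.04. The 3 libraries were picked from the members' own values, so these figures describe them and test nothing.

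**Figure D4:**
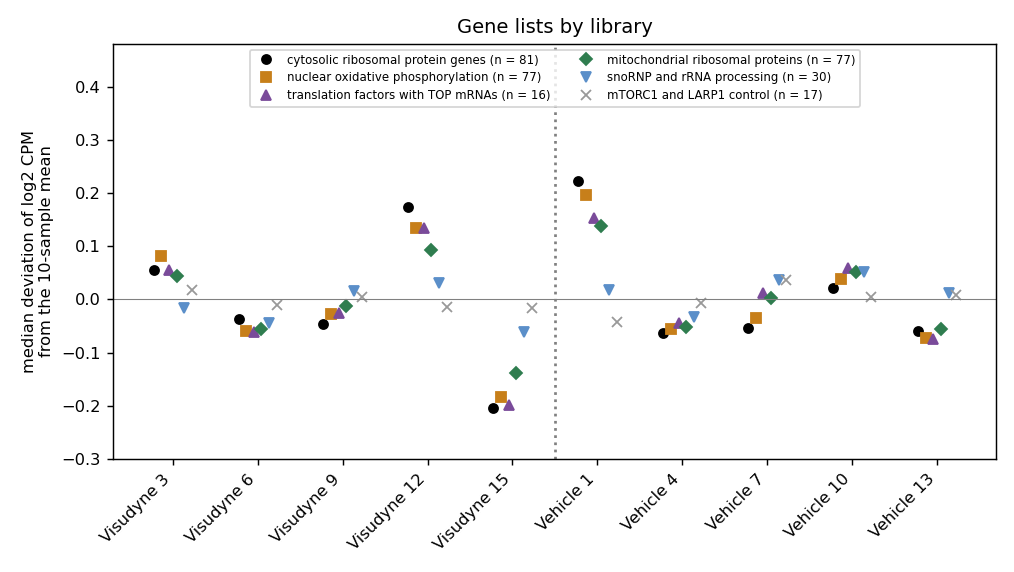
Median deviation of log2 CPM from the 10-sample mean for 6 gene lists, by library, with Visudyne samples left of vehicle samples. Ribosomal protein genes, oxidative phosphorylation, TOP translation factors and mitochondrial ribosomal proteins are all high in Visudyne 12 and Vehicle 1 and low in Visudyne 15, while rRNA processing and mTORC1 genes stay between -0.06 and 0.05.

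Between Visudyne and vehicle no gene of these lists passed edgeR's test. Among translation factors the 3 of smallest p were Pabpc1 (log2 fold change 0.08), the poly(A)-binding protein, Eif3e (-0.10) and Npm1 (-0.09), with 14 of 16 genes negative. Among the rRNA processing genes they were the methyltransferase Nop2 (-0.08), Utp4 (-0.09) and Utp15 (-0.09), with 23 of 30 negative. Nop2 averaged 22.4 ± 0.331 CPM with Visudyne and 23.7 ± 0.720 CPM with vehicle (SD, n = 5 each). Among the 15 genes of RNA polymerase I transcription they were Polr1b (0.12), Taf1b (-0.08) and Ubtf (-0.04), with 11 of 15 negative. Among the 18 of subunit export and late assembly they were Riok1 (-0.09), Gnl2 (-0.05) and Nmd3 (0.06), with 11 of 18 negative. Eif4ebp2 (0.09), Rheb (-0.07) and Eif4a1 (-0.07) led the mTORC1 and LARP1 list, with 10 of 17 negative, and Snhg12 (-0.07), Gas5 (-0.06) and Snhg6 (-0.07) the 6 noncoding TOP hosts of snoRNAs, with 5 of 6 negative. In the nucleolar stress and p53 list 3 of 10 were negative. Mitochondrial ribosomal proteins were led by Mrpl23 (-0.21), Mrpl54 (-0.12) and Mrps18b (-0.09), with 58 of 77 negative, and oxidative phosphorylation by Cox7b2 (0.42), Ndufa9 (-1.18, SE 1.01) and Ndufa4 (0.70, SE 0.60), with 62 of 77 negative. Of all genes tested, 48.9% were negative. The translation factors, the mitochondrial ribosomal proteins and the oxidative phosphorylation genes shared the low values of Visudyne 15 and the high values of Vehicle 1. The sign count of no list was recomputed without these or other libraries. Outside the naming rule, Rpsa stood at -0.06 and Fau at 0.03. List medians ran from -0.06 to 0.03, against 0.0022 for all genes.

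Many members share their sequence with other entries of the table. At 95% identity over 90% of the coding sequence, 68 of the 84 members had at least 1 such entry, and 314 of the 326 entries outside the members were annotated as pseudogenes. The median member held 99.6% of the counts of its group in its own entry, yet 17 held under 90% and 7 held under 50%. Rps12, whose protein is a standard component of the small subunit, held 0.0504%, with the rest in copies led by Rps12-ps3, which is 100% identical. The others were Rpl12 (6.05%, largest copy Gm10275), Rps27 (8.39%, Rps27rt), Rpl10 (9.41%, Rpl10-ps3), Rpl27 (11.5%, Rpl27-ps3), Rpl5 (21.2%, Gm15500) and Rpl35 (49.3%, Gm2000). Where coding sequences are identical, the division of reads rests on the untranslated parts and on the estimation, so single values of these genes are uncertain.

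Each member was then summed with such entries. Rps27 (chr3:90212522-90213651, minus strand) and Rps27rt (chr9:114982366-114982739, minus strand), with 1 further entry, came to 86.6, 79.4, 81.04, 95.1 and 72.3 CPM with Visudyne, against 99.1, 79.6, 84.1, 83.7 and 78.2 CPM with vehicle. The share of these counts placed on Rps27 had run from 1.84% to 18.9% between libraries. Its residual SD, after the library's median deviation, was 1.13 for Rps27 alone and 0.032 for the sum, whose log2 fold change was -0.04. Rps12 with its copies averaged 88.2 ± 7.06 CPM with Visudyne and 89.0 ± 11.2 CPM with vehicle, and Rpl10 had a log2 fold change of -0.01 in place of 0.12. Rpl5 came to -0.04 in place of -0.09, and Rpl27 to -0.07 in place of -0.11. Rpl35 came to 0.0004 in place of 0.04. Over all 81 tested groups, edgeR's test again called 0 higher and 0 lower, and 64 were negative.

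Rps16 was the exception. Summed with its 3 near-identical pseudogene entries it had 33.7, 35.9, 34.1, 37.5 and 33.0 CPM with Visudyne, against 23.0, 27.6, 34.5, 34.6 and 35.5 CPM with vehicle. Vehicle 1, the highest library for most members, thus remained the lowest for Rps16. The residual SD of the sum was 0.27, the largest of any group, and its log2 fold change was 0.17 with an adjusted p of 0.9999 by edgeR's quasi-likelihood test. Why Rps16 departs in these libraries was not tested.

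**Figure D5:**
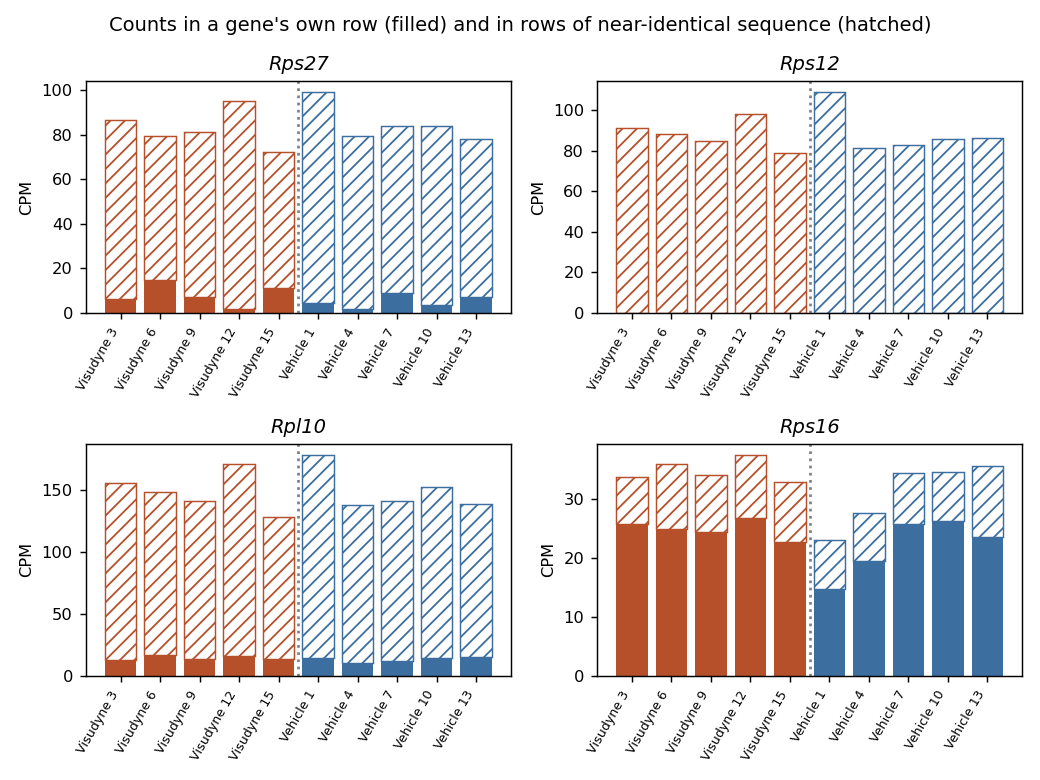
CPM of Rps27, Rps12, Rpl10 and Rps16 in each library, with the gene's own entry filled and near-identical entries hatched above it, Visudyne samples (orange) left of vehicle samples (blue). The bars of Rps27 total 72.3 to 99.1 CPM although its own entry varies from 1.72 to 15.02 CPM, Rps12 has almost nothing in its own entry, and Rps16 is low in Vehicle 1 and Vehicle 4 with copies included.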

How the data were processed

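Libraries were prepared from hippocampal total RNA with TruSeq Stranded Total RNA reagents, according to the protocols in the labels. The table deposited by the authors holds estimated counts, as whole numbers; the submitters' processing notes name Salmon, FastQC and mm10. Versions and the annotation release were not given in the sources used here. Of 28871 identifiers, 28564 matched GENCODE M21 on the same assembly, from which symbols, types and lengths were taken. Counts were fitted with edgeR 4.0.16 (R 4.3.3; default filter on low counts, TMM factors, quasi-likelihood F-test, Benjamini-Hochberg threshold 0.05) over 19093 genes. Log2 CPM used a prior count of 2. Near-identical entries were found with blastn 2.17.0. Counts of the 45 pairs of libraries differed by 9.61 to 68.2 chi-square per degree of freedom, so none repeats another. The fit was tested on simulated data without the shared shift between libraries. Of 20 members raised 1.25-fold there, 7 were called, and 7.03% of all calls were false. Of other genes, 14% were called at 1.25-fold and 62% at 1.5-fold, so small changes could be missed. Named genes were those of the 6 smallest p per direction, the 6 highest and lowest levels, the 3 largest and smallest spreads, a fixed list of well-known members, and the 3 of smallest p per related list. Others were named after their values were seen, and a few genes are not reported here by name. The members and lists were chosen with earlier results of these data known. Alternatives used DESeq2 1.42.0, limma 3.58.1 and sva 3.50.0.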

Additional observations from a re-analysis of the deposited data

Results flagged for a closer look

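Of 100 groups of 5 samples checked, 11 had a sample whose gap to its nearest neighbour exceeded 0.71 of the group's range (Dixon's limit for 5 samples), where chance gives about 1 in 20. All 11 were Vehicle 1, and they are not independent, because the library is high for most members. The genes were Rpl26 at 168.2 CPM (other vehicle samples 132.2 to 137.7), Rpl36a at 49.57 CPM (39.59 to 41.77), Rpl41 at 167.5 CPM (128.9 to 135.8), Rplp0 at 153.2 CPM (123.2 to 129.4), Rplp1 at 239.5 CPM (191.8 to 204.9), Rplp2 at 74.87 CPM (65.07 to 67.19), Rps29 at 126.7 CPM (111.5 to 112.6) and Rps3 at 141.8 CPM (114.7 to 121.1). With near-identical entries summed, Rps27 and Rps27rt stood at 99.07 CPM (78.19 to 84.08) and Rps12 at 108.8 CPM (81.51 to 86.25). The members' share of nuclear protein-coding counts was 1.272% in Vehicle 1, against 1.09% to 1.124% in the other vehicle samples.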

How the results depend on the processing

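No member was called in either direction under any of 25 alternatives, of which summing near-identical entries and scaling libraries to the members were chosen after seeing the data. The median log2 fold change of members was -0.07 to 0.03 when each sample was left out in turn, 0.08 without both ends of the first principal component, 0.01 with sample quality weights, 0.0025 with the sample number and 0.0085 with 1 surrogate variable, so its sign is not stable. Some members below the threshold changed sign. With near-identical entries summed, Rps27 came to -0.0355 and Rpl10 to -0.00956. Without both ends of the first component the values were 0.0195 for Rpl21, 0.0374 for Rps27rt, 0.0347 for Rps27a, 0.124 for Rpl22l1, 0.0107 for Rpsa, 0.00829 for Ubtf and -0.00944 for Nmd3. Rpl22l1 (-0.03) came to 0.00965 with the sample number and 0.00469 with the surrogate variable. Leaving out each sample gave -0.0202 to 0.112 for Rpl35, -0.146 to 0.0657 for Rpl22l1, -0.135 to 0.0023 for Rpsa and -0.046 to 0.117 for Fau. The other 992 of 1009 recomputed values kept their direction and side of the threshold. Their size could still move: leaving out each sample gave 0.341 to 0.963 for Rps27 and -1.94 to -0.859 for Ndufa9. No paired analysis was possible because the groups share no sample number. Counts were lowest for Rpl39l (0 to 6 per sample), Rps12 (0 to 7) and Rpl3l (4 to 14), which were not tested. For Rps12 most counts of its sequence group lay in near-identical entries. Among tested members, Rps25 also had few counts, at most 259 in any sample.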
